A study of Mus musculus with 51 samples.

Results

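The MHC class I presentation genes described here are 9 genes that build, load or switch on the classical peptide display of nucleated cells: B2m, H2-K1, H2-D1, H2-T23, Tap1, Tap2, Tapbp, Erap1 and Nlrc5. They were chosen by symbol and not by a filter on measured values, but with earlier results of these data known. All 9 had a row in both deposited tables. They were 9 of 10560 genes in the table of untreated libraries. In the table of libraries from mice given immune checkpoint blockade (ICB) they were 9 of 13458. The study sorted CD8+ T cells by flow cytometry and read their mRNA with QuantSeq, a method that sequences 1 tag near the 3' end of each transcript. Tumors were of AT3-OVA, a mouse mammary carcinoma line that carries ovalbumin as a model antigen. The untreated tumor libraries came from weeks 1, 2, 4 and 6, and cells were divided by CD103, an integrin chain that binds E-cadherin, and CD69, a surface protein that keeps T cells in tissue. CD103+CD69+ cells are called DP here (3, 4, 3 and 3 libraries at the 4 weeks), CD103-CD69+ cells SP (3, 3, 2 and 3) and CD103-CD69- cells DN (2, 3, 3 and 2). Control spleens supplied naive, CM and EM cells (the labels' own abbreviations), with 3 libraries of each. ICB tumors were taken on day 40, with 3 DP, 3 SP and 2 DN libraries. The labels used here give no strain, age or agents of the blockade, and do not say whether a library is 1 mouse or a pool, so each p-value measures only the spread between these libraries.

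Class I molecules show fragments of a cell's own proteins to CD8+ T cells. The proteasome cuts proteins into peptides, the TAP transporter carries them into the endoplasmic reticulum, ERAP1 trims them, and tapasin helps fit them into a groove formed by a heavy chain that is held in shape by beta-2 microglobulin. Interferons raise the whole set, through IRF1 and the coactivator NLRC5, and T cells, which are readers of class I, also carry it at high levels themselves.

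Of the 9 genes, 6 lie on chromosome 17 in the mouse H2 region, between 33915899 and 36032855 in GRCm38 (GENCODE M21). They are Tapbp, H2-K1, Tap1, Tap2, H2-D1 and H2-T23. B2m is on chromosome 2 (chr2:122147686-122153083), Nlrc5 on chromosome 8 (chr8:94434356-94527272) and Erap1 on chromosome 13 (chr13:74639568-74693201). H2-K1 occupies chr17:33996017-34000347 on the minus strand and H2-D1 chr17:35262730-35267499 on the plus strand. Since heavy chain genes are alike, exact 75-base windows were searched in the last 500 bases of each annotated transcript. None of those of H2-D1, B2m, Tap1, Tap2, Nlrc5 or Erap1 recurred in another gene's transcripts, up to 5.63% did for H2-K1, up to 6.17% for Tapbp (all in the overlapping gene Zbtb22) and 20% for H2-T23. H2-T23 values are therefore the least certain. B2m, Tap1 and Erap1 overlap the protein-coding genes Patl2, Psmb9 and Cast on the opposite strand. Nlrc5, Tap2, H2-T23 and Tapbp overlap noncoding genes on the opposite strand, and H2-K1 and H2-D1 overlap no gene. On their own strand Tapbp overlaps the protein-coding gene Zbtb22 and Nlrc5 the microRNA gene Mir7072, which counting by strand would not separate. Whether counting used the strand is not given in the sources used here.

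Promoter windows of RefSeq (GRCm38.p6, from 250 bases before to 50 after a start site) held 7 of the 9 members, all but Tap2 and Nlrc5. The stretches below are upstream of the RefSeq start used for each window. They are shown because B2m with H2-K1 and B2m with H2-D1 were the 2 pairs of members most alike over the group means. The H2-D1 stretch lies inside that gene as annotated in GENCODE M21, which begins at chr17:35262730. Capitals mark GGGNNTTCC, an NF-kB type motif, and TGACGC, an X2 box type motif, in H2-K1 and H2-D1, and GAAANNGAA, an interferon regulatory factor type motif, in B2m.
H2-K1: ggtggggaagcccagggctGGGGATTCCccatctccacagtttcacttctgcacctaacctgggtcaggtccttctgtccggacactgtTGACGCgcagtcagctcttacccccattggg
H2-D1: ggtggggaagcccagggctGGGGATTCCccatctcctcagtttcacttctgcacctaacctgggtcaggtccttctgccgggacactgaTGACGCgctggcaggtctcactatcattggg
B2m: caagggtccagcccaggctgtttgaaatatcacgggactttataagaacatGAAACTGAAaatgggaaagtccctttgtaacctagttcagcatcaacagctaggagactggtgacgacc
They span chr17:34000358-34000477 (minus strand), chr17:35262904-35263023 (plus strand) and chr2:122147497-122147616 (plus strand). H2-K1 and H2-D1 had the same base at 109 of 120 positions, with both motifs 70 bases apart in each. These 2 stretches were placed so that they line up, from -130 to -11 of the start in H2-K1 and from -190 to -71 in H2-D1. B2m was not lined up with either. Its 30 of 120 bases shared with H2-D1 therefore do not measure how alike the promoters are. Searched on both strands, the NF-kB type motif was present in 5.82% of all 32851 promoter windows, the X2 box type in 7.4% and the interferon type in 8.56%. The interferon type was also found in the windows of Erap1, where 2 matches overlap, and H2-T23. H2-K1 and H2-D1 had no match to it, which says only that these letters in this spacing are absent, not that no interferon element is present. A STAT type motif, TTCNNNGAA, occurred in 8.3% of all windows and in none of the 7 members, and no motif searched was found for Tap1 or Tapbp, which says only that these letters are not in these windows.

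The deposited values were read as log2. Levels are not abundances in either table, since gene means run from -28.04 to 39.37 in the untreated and from -21.19 to 20.69 in the ICB table. They are compared only within a gene. The residual rank of the untreated table is 18 of 28, so its spread between libraries is understated. Groups that do not overlap below are thus less clearly apart than they look. B2m, the light chain, ran from a mean of 4.90 ± 0.134 (SD, n = 3) in week-1 DP cells to 5.84 ± 0.0656 (SD, n = 3) in week-4 DP cells. Its order from low to high was week-1 DP, spleen CM (5.20) and EM (5.20), week-1 DN (5.28), week-4 DN (5.35), week-1 SP (5.46), naive spleen (5.53), week-2 DN (5.55), week-2 SP (5.60), week-6 DN (5.60), week-2 DP (5.71), week-6 DP (5.72), week-6 SP (5.77), week-4 SP (5.83) and week-4 DP. Only week-1 DP stood clear at the bottom. The step above it was 0.292, no later step exceeded 0.11, and 11 of 14 neighbouring groups overlapped in their libraries. Nlrc5, the coactivator, also had its lowest mean in week-1 DP cells, at 11.84 ± 0.13 (SD, n = 3), followed by naive spleen at 12.08 ± 0.0406 (SD, n = 3), and its highest in week-2 DN cells, at 12.87 ± 0.0544 (SD, n = 3). The other 12 groups lay between 12.42 in spleen EM and 12.73 in week-4 SP cells.

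**Figure D1:**
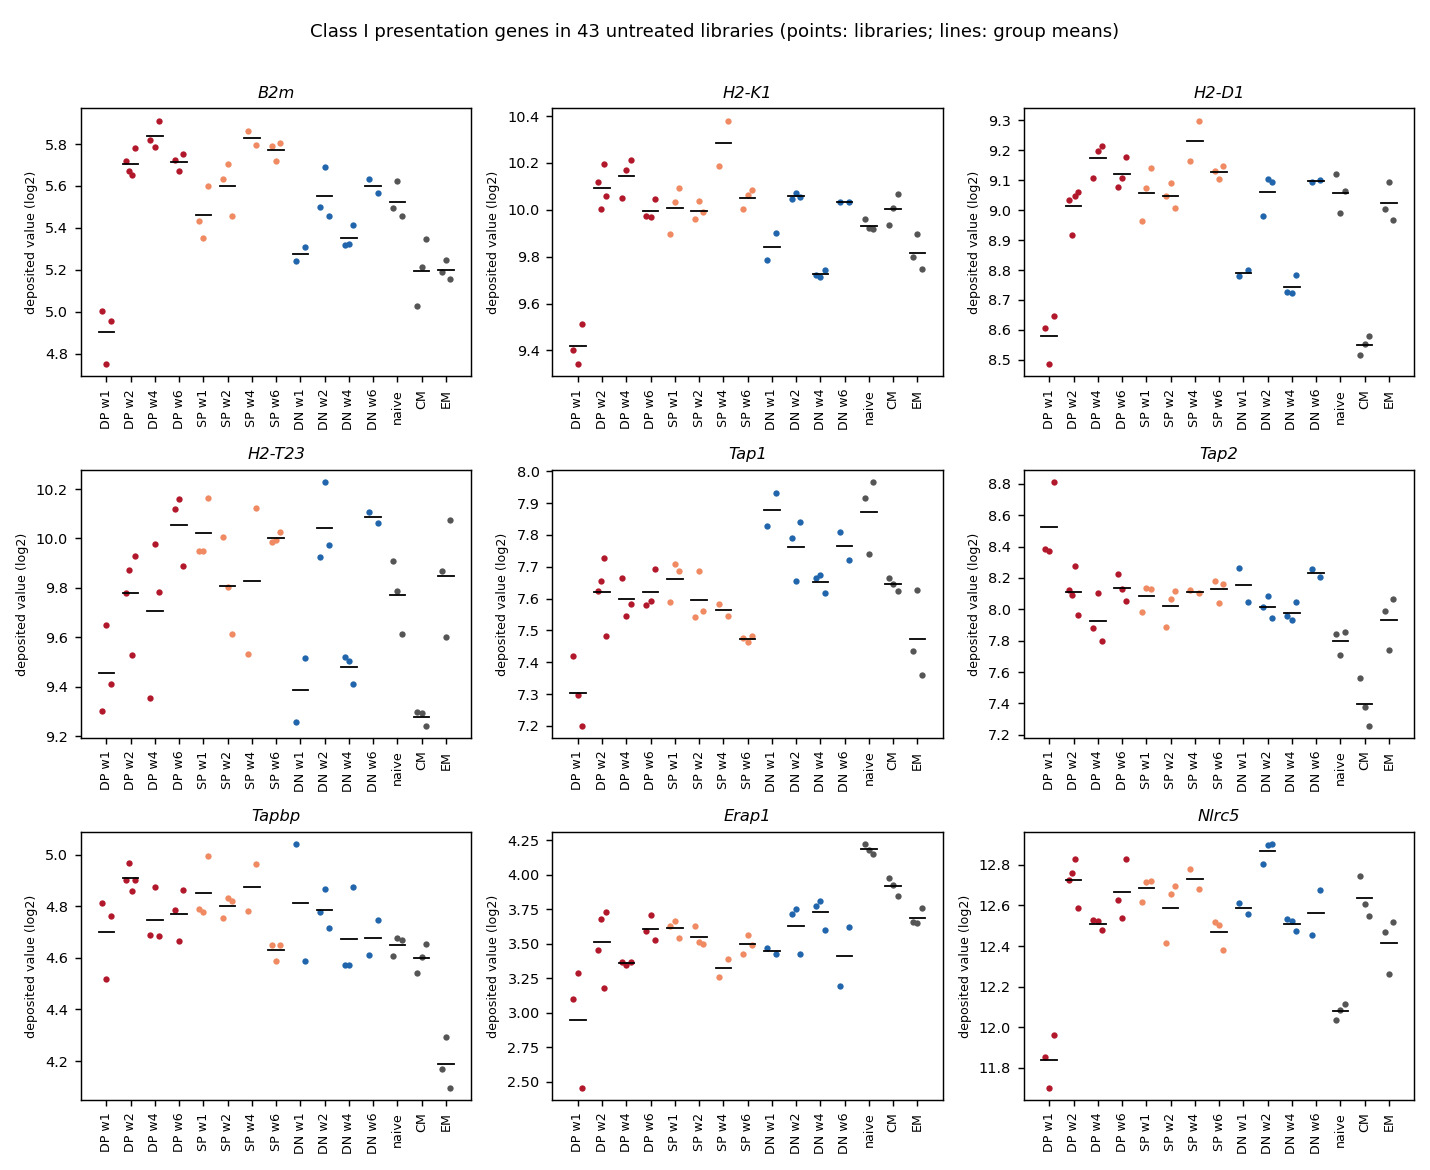
Deposited log2 value (vertical axes, a different range in each panel) of the 9 genes in 43 untreated libraries, by subset and week (w1 to w6) or spleen subset; each point is a library and each line a group mean. Week-1 DP libraries are the lowest of all for B2m, H2-K1 and Nlrc5 and the highest for Tap2.

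For the other members the lowest group mean was again week-1 DP for H2-K1 (9.42), Tap1 (7.30) and Erap1 (2.95), and was spleen CM for H2-D1 (8.55), H2-T23 (9.28) and Tap2 (7.40) and spleen EM for Tapbp (4.19). The highest was week-4 SP for H2-K1 (10.28) and H2-D1 (9.23), week-6 DN for H2-T23 (10.09), week-1 DN for Tap1 (7.88), week-1 DP for Tap2 (8.52), week-2 DP for Tapbp (4.91) and naive spleen for Erap1 (4.18). Group means of one gene spanned between 0.574 (Tap1) and 1.23 (Erap1).

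At week 1 the class I chains were lower in DP than in SP cells. B2m was 5.002, 4.75 and 4.96 in the 3 week-1 DP libraries and 5.44, 5.35 and 5.60 in the 3 SP libraries. The groups did not overlap, and the highest DP value lay under the lowest of the other 40 untreated libraries, 5.03 in spleen CM. The difference was -0.56 (SE 0.109, limma adjusted p = 0.00141). H2-K1, a classical heavy chain, was 9.40, 9.34 and 9.51 in DP against 9.90, 10.03 and 10.09 in SP, a difference of -0.59 (SE 0.0954, adjusted p = 0.000265). All 3 DP values again lay under every other untreated library, the lowest of which, in week-4 DN, was 9.71. H2-D1, the other classical heavy chain, was 8.61, 8.49 and 8.65 in DP and 8.96, 9.07 and 9.14 in SP, a difference of -0.48 (SE 0.0874, adjusted p = 0.000801). Here 3 of the other 40 libraries lay below the highest week-1 DP value. H2-T23, which encodes Qa-1, the nonclassical chain read by NKG2A, was 9.30, 9.65 and 9.41 against 9.95, 9.95 and 10.17, a difference of -0.57 (SE 0.186, adjusted p = 0.0392).

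The coactivator and the trimming peptidase moved the same way and the transporter chains moved apart. Nlrc5 was 11.85, 11.70 and 11.96 in week-1 DP and 12.62, 12.72 and 12.72 in SP libraries. The difference, -0.85 (SE 0.13, adjusted p = 0.000159), was the largest of the 9, and the DP values lay under all other 40 untreated libraries, of which the lowest was 12.04 in naive spleen. Erap1, the peptidase of the endoplasmic reticulum, was 3.10, 3.29 and 2.46 against 3.63, 3.67 and 3.54, a difference of -0.66 (SE 0.176, adjusted p = 0.0127). The third DP library was far below the other two. Tap1, a chain of the peptide transporter, was 7.42, 7.30 and 7.20 against 7.59, 7.71 and 7.69, lower at -0.36 (SE 0.0999, adjusted p = 0.0173). Tap2, its partner chain, went the other way, with 8.39, 8.37 and 8.81 in DP and 7.98, 8.13 and 8.13 in SP, a difference of 0.44 (SE 0.136, adjusted p = 0.0286). All 40 other untreated libraries had less Tap2 than any week-1 DP library. Tapbp, which encodes tapasin, overlapped between the groups, with a difference of -0.15 (SE 0.127, adjusted p = 0.438).

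In all, 7 members were lower and 1 higher in week-1 DP than week-1 SP cells, where 17.4% of all 10560 genes were called. The median difference was -0.56 over the members and -0.05 over all genes. Calls for B2m, H2-K1, H2-D1 and Nlrc5 held when any 1 of the 6 libraries was left out. Without the third week-1 DP library the adjusted p was 0.0598 for Tap1, 0.144 for Tap2, 0.0754 for Erap1 and 0.0827 for H2-T23. Leaving out the first SP library gave 0.0873 for Tap2, and the H2-T23 call was lost without any 1 of 5 libraries, all but the second DP library (adjusted p between 0.0562 and 0.116). When the spread was estimated from these 6 libraries alone, 2 calls were left, H2-K1 and Nlrc5, with B2m at an adjusted p of 0.0571 and H2-D1 at 0.062, and after median rescaling H2-T23 (0.063) and Tap1 (0.075) did not pass.

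**Figure D2:**
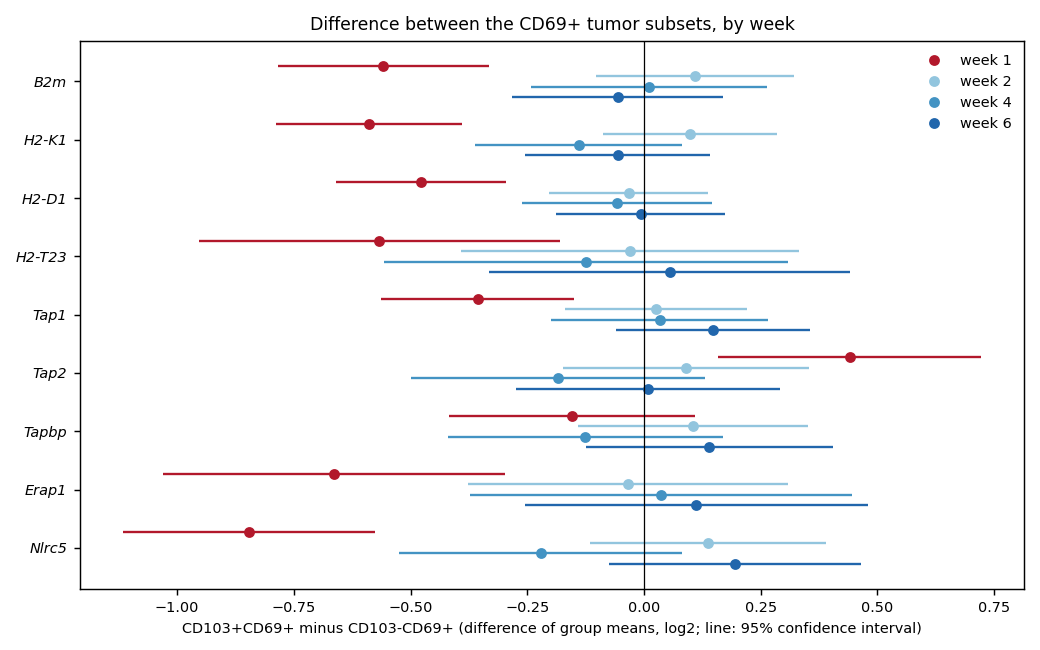
Difference of group means, DP minus SP (horizontal axis, log2), for each gene at weeks 1, 2, 4 and 6, with 95% confidence intervals as lines. At week 1 the intervals of 7 genes lie below 0 and that of Tap2 above it, and all intervals at weeks 2, 4 and 6 include 0.

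Other measured features of the week-1 DP libraries moved with these values. Of 10 T-cell identity genes, 8 were lower than in week-1 SP cells and none was higher, among them Cd8a at -1.22 (adjusted p = 6.04e-06), Lck at -0.81 and Cd3e at -0.88. The mean of the gene-centred values of that list was -0.72 in week-1 DP cells, with libraries between -0.73 and -0.71, against -0.05 in week-1 SP cells (-0.09 to -0.01). For 5 measured of 8 epithelial markers, the mean was 2.93 in week-1 DP (2.23 to 3.46), 2.24 in week-1 SP (1.95 to 2.46) and -1.31 in week-1 DN cells (-1.56 to -1.06), and 1 of the 5, Cdh1, was called higher in DP than SP. Of 9 measured myeloid markers and of 5 class II genes, 0 were called between the week-1 DP and SP cells, with differences whose medians were 0.45 and 0.41. The spread between the 3 week-1 DP libraries was the widest of the 15 groups, with a median SD over all genes of 0.289 against 0.167 in week-1 SP cells. The members' own mean of gene-centred values was -0.33 in week-1 DP cells (-0.36 to -0.31) and between -0.16 and 0.12 in the other 14 groups. The part of cell makeup, tumor RNA or library quality in the week-1 result was not tested, and in sorted bulk samples fewer cells of a type and less RNA per cell cannot be told apart.

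**Figure D3:**
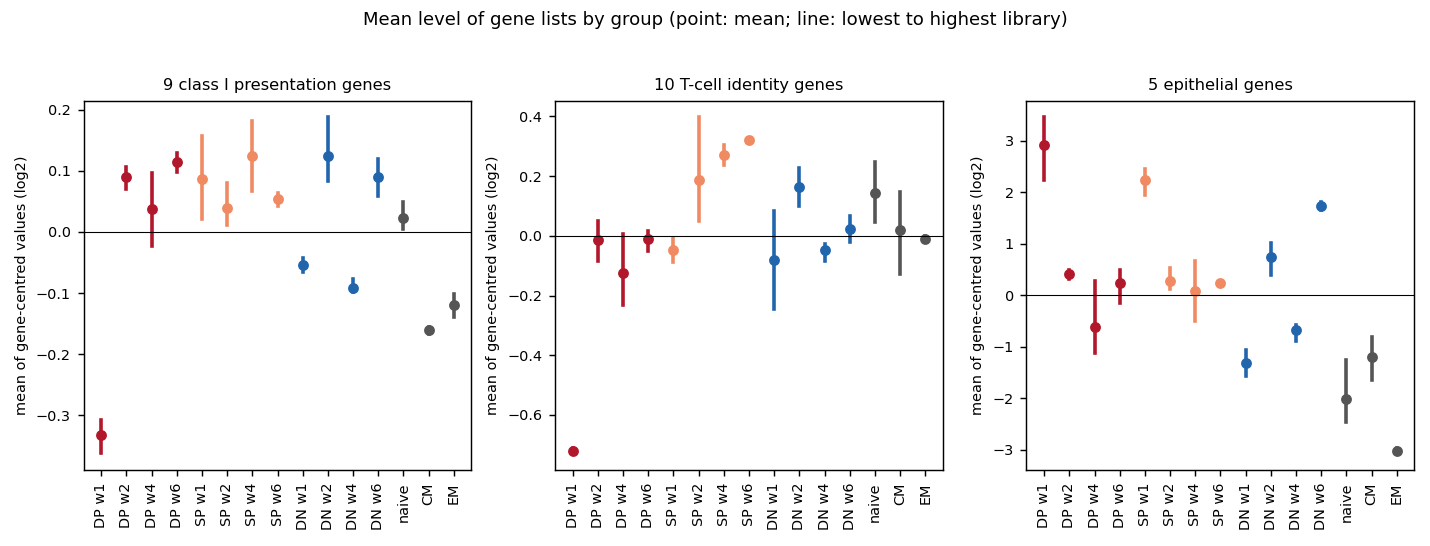
Mean of gene-centred log2 values of 3 gene lists (vertical axes) in 15 untreated groups; points are group means and lines run from the lowest to the highest library. Week-1 DP is the lowest group for the class I genes (-0.33) and for T-cell identity (-0.72) and the highest for epithelial genes (2.93).

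Genes of the wider class I pathway were also lower in week-1 DP cells. From a list of 54, 46 were measured, of which 17 were lower and 1 was higher than in week-1 SP cells, beside 17.4% of all genes called in either direction, with a median difference of -0.39. Those named were the largest differences past the test. They were H2-Q6 at -1.31 (SE 0.19, adjusted p = 9.14e-05), H2-Q7 at -1.15 (SE 0.149, adjusted p = 3.09e-05) and H2-T10 at -1.14 (SE 0.275, adjusted p = 0.00707), all nonclassical heavy chain genes whose reads can be shared with near copies. By role, 5 of 13 other class I chains, 2 of 5 genes of the immunoproteasome and its activator, 2 of 5 cytosolic peptidases, 1 of 4 loading and chaperone genes and 7 of 16 regulators were lower.

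By week 2, 6 of the 9 members had risen in DP cells and Tap2 had fallen. B2m in DP cells was 5.72, 5.67, 5.65 and 5.78 at week 2, 5.82, 5.79 and 5.91 at week 4 and 5.72, 5.67 and 5.75 at week 6, so every later library was above all 3 of week 1. From week 1 to week 6 B2m rose by 0.81 (SE 0.109, limma adjusted p = 2.02e-05), Nlrc5 by 0.83 (SE 0.13, adjusted p = 0.000107), Erap1 by 0.66 (SE 0.176), H2-T23 by 0.60 (SE 0.186), H2-K1 by 0.58 (SE 0.0954), H2-D1 by 0.54 (SE 0.0874) and Tap1 by 0.32 (SE 0.0999). Tap2 fell by 0.39 (SE 0.136) and Tapbp differed by 0.07 (SE 0.127, adjusted p = 0.716). That made 7 members higher and 1 lower, where 25% of all genes were called, and the medians were 0.58 over the members and 0.07 over all genes. Between weeks 1 and 2, 6 members rose and Tap2 fell, with 34% of all genes called, and H2-T23, at 0.32 (SE 0.174, adjusted p = 0.159), and Tapbp did not pass. When only these 7 libraries were fitted, 4 members were called and Tap1 (adjusted p = 0.0549), Tap2 (0.0605) and Erap1 (0.0977) were not. Of the T-cell identity genes 8 of 10 were also higher at week 2 than at week 1, and 5 of 9 myeloid, 4 of 5 epithelial, 2 of 3 stromal and endothelial and 2 of 2 erythroid markers were lower. Their part in the members' change was not tested. Between weeks 2 and 6 in DP cells 0 members were called, with 0.246% of all genes called and 1401 genes at an unadjusted p under 0.05.

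Several of these weekly calls rested on single libraries. Without the third week-1 DP library, the rise of Erap1 (adjusted p = 0.0591) and Tap1 (0.078) and the fall of Tap2 (0.197) from week 1 to week 6 no longer passed. The same library ended the calls of Tap2 (adjusted p = 0.111) and Erap1 (0.103) between weeks 1 and 2. H2-T23 was lost without the first week-1 library (0.0641) or the first (0.0576) or second (0.0661) week-6 library, Tap1 without the third week-6 library (0.0718), and Tap2 without the second (0.082) or the third (0.106). Fitted on these 6 libraries alone, the adjusted p was 0.108 for Tap1, 0.129 for Tap2 and 0.0884 for Erap1; median rescaling gave 0.15 for Tap1, and a term for the run of library codes 0.0674 for Tap2. The T-cell identity list had 6 of 10 genes higher at week 6 than at week 1, and 4 of 5 epithelial markers were lower, which moved together with the members and whose part was not tested. Of the 46 pathway genes 19 rose from week 1 to week 6 and 3 fell, beside 25% of all genes called, led by H2-Q6 at 1.69 (SE 0.19, adjusted p = 2.95e-06), Thop1, a cytosolic peptidase that destroys class I peptides, at -1.31 (SE 0.264, adjusted p = 0.00105) and Socs1, an inhibitor of interferon signalling, at 1.28 (SE 0.184, adjusted p = 4.1e-05).

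SP and DN cells gave 0 member calls between weeks 1 and 6. Of all genes, 2.72% were called in SP cells and 5.79% in DN cells, with 1789 and 2295 genes at an unadjusted p under 0.05. B2m in SP cells was 5.44, 5.35 and 5.60 at week 1 and 5.79, 5.72 and 5.81 at week 6, which did not overlap. In DN cells it was 5.24 and 5.31 at week 1 and 5.63 and 5.57 at week 6. H2-T23 had the widest shift in DN cells, from 9.26 and 9.51 to 10.11 and 10.06, again with no overlap. Of the pathway list, 0 genes were called in SP cells and 1 in DN cells, Sel1l, an adaptor of protein degradation in the endoplasmic reticulum, at 1.33 (SE 0.204, adjusted p = 0.00129).

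At the later weeks no member was called between DP and SP cells. Of all genes 0% were called at week 2, 0.142% at week 4 and 0% at week 6, and 677, 1355 and 729 had an unadjusted p under 0.05. The member differences ran from -0.03 to 0.14 at week 2, from -0.22 to 0.04 at week 4 and from -0.06 to 0.19 at week 6. Over the weeks weighted equally, 8 of 9 differences were below 0, none passed, 3.48% of all genes were called and 1890 had an unadjusted p under 0.05. H2-K1 was nearest, at -0.17 (SE 0.0484, adjusted p = 0.0532). Of the T-cell identity genes 9 of 10 were lower in DP than SP cells in the same comparison, with a median difference of -0.36, as were 2 of 2 erythroid markers, and their part was not tested. Without week 1 the pooled member differences ran from -0.03 to 0.07. Of the pathway list only H2-Q6, at -0.40 (SE 0.0964, adjusted p = 0.0207), and Socs1, at -0.36 (SE 0.0933, adjusted p = 0.0324), were called in the pooled comparison. This pooled count depended on the fit, with 4 members called at design-based degrees of freedom, 3 when only the groups compared were fitted, 2 after quantile normalization and 1 with a term for the run of library codes.

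The change of the subset difference with time was tested directly as the week-1 difference minus the mean of those of weeks 2, 4 and 6. For DP against SP, 6 members had a lower week-1 difference, which were Nlrc5 (-0.88), Erap1 (-0.70), B2m (-0.58), H2-K1 (-0.56), H2-D1 (-0.44) and Tap1 (-0.43), and Tap2 a higher one (0.47), where 14.7% of all genes were called. For DP against DN 5 were lower, Nlrc5 (-0.73), B2m (-0.63), H2-K1 (-0.56), Tap1 (-0.46) and H2-D1 (-0.35), at 25.8% of all genes. For SP against DN 0 were called, at 6.53% of all genes and with 2290 at an unadjusted p under 0.05. H2-T23, at 0.62, passed there with design-based degrees of freedom (adjusted p = 0.0201) and when only the groups compared were fitted (0.027). These contrasts share the week-1 DP libraries or each other's controls and are not independent. The Tap2 call ended when any 1 of 16 libraries was left out (adjusted p between 0.0503 and 0.164), and that of Erap1 without the third week-1 DP (0.0934) or the second week-1 SP library (0.0505). Median rescaling ended the Tap1 call (0.052), and a fit with neither trend nor robust option that of Tap2 (0.0572). For DP against DN the H2-D1 call was lost without any 1 of 3 libraries (0.0556 to 0.0775).

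Against DN cells at week 1, DP cells were lower in 4 members, where 22.7% of all genes were called. Nlrc5 was 12.61 and 12.56 in the 2 DN libraries and lower in DP at -0.75 (SE 0.145, adjusted p = 0.000949), Tap1 7.83 and 7.93 and lower at -0.57 (SE 0.112, adjusted p = 0.000954), H2-K1 9.78 and 9.90 and lower at -0.42 (SE 0.107, adjusted p = 0.00683), and B2m 5.24 and 5.31 and lower at -0.37 (SE 0.122, adjusted p = 0.0317). None of these overlapped the DP values given above. When only the 5 libraries of these groups were fitted, 0 members were called. Leaving out 1 library ended the B2m call in 3 cases (adjusted p between 0.0913 and 0.117) and the H2-K1 call without the second DN library (0.0514). A term for the run of library codes ended both calls (0.204 for B2m and 0.0543 for H2-K1). The week-1 DN libraries have later codes than all week-1 DP and SP libraries. In the pathway list of 46 measured, 13 genes were lower and 4 higher, beside the 22.7% of all genes, led by H2-Q7 at -1.32 (SE 0.167, adjusted p = 1.19e-05), the interferon-gamma receptor chain Ifngr1 at -1.29 (SE 0.214) and the type I interferon receptor chain Ifnar2 at -1.25 (SE 0.265). Of the markers, 6 of 10 T-cell identity genes were lower and 4 of 5 epithelial and 4 of 9 myeloid ones higher in DP cells. SP cells differed from DN cells at week 1 in 0 members, at 7.26% of all genes (2511 at an unadjusted p under 0.05), and in 3 pathway genes, all higher: Sel1l (0.91), Calr (0.66) and Canx (0.62), the last pair being chaperones of new class I chains. With design-based degrees of freedom H2-D1 (adjusted p = 0.00687) and H2-T23 (0.00666) passed, after quantile normalization H2-T23 (0.0345) and Tap1 (0.0406). Of the epithelial markers 4 of 5 were higher in SP than DN cells, with a median difference of 4.05, and their part was not tested.

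At week 4 both CD69+ subsets had more light chain and classical heavy chain message than DN cells. B2m was 5.32, 5.32 and 5.41 in DN, 5.82, 5.79 and 5.91 in DP and 5.86 and 5.80 in SP libraries. H2-K1 was 9.72, 9.71 and 9.74 in DN, 10.05, 10.17 and 10.21 in DP and 10.19 and 10.38 in SP libraries. H2-D1 was 8.73, 8.72 and 8.78 in DN, 9.11, 9.20 and 9.22 in DP and 9.16 and 9.30 in SP libraries. The DN values lay below both other subsets in each case. For DP against DN the differences were 0.49 (SE 0.109, adjusted p = 0.00339), 0.42 (SE 0.0954, adjusted p = 0.0039) and 0.43 (SE 0.0874, adjusted p = 0.00176), and 21.9% of all genes were called. For SP against DN they were 0.48 (SE 0.122, adjusted p = 0.0128), 0.56 (SE 0.107, adjusted p = 0.00196) and 0.49 (SE 0.0977, adjusted p = 0.00277), at 13.6% of all genes. Erap1 went the other way, at 3.77, 3.81 and 3.60 in DN, 3.37, 3.35 and 3.37 in DP and 3.26 and 3.39 in SP libraries. Its differences from DN, -0.37 in DP and -0.40 in SP, were not called. For DP it passed in limma with design-based degrees of freedom (adjusted p = 0.0397) and when only these groups were fitted (0.0161). Of the 9 members 4 differences were below 0 in DP and 2 in SP. The 2 comparisons share the DN libraries. All week-4 DN libraries have later library codes than all week-4 DP and SP libraries, so subset and run of codes cannot be told apart within that week. With either SP library left out B2m no longer passed against DN (adjusted p = 0.0643 and 0.07), nor H2-D1 without the second (0.0567). Among markers, all 3 stromal and endothelial genes (median -2.78) and both erythroid genes (median -5.62) were lower in DP than DN cells, and 0 of either list were called in SP cells. Of CD4 and regulatory genes 2 of 3 were higher in both comparisons, as was 1 of 5 epithelial genes, and in SP cells 3 of 10 T-cell identity genes and 1 of 2 B-cell genes were higher. In DP cells 1 T-cell identity gene was higher and 1 lower. Their part in the class I differences was not tested.

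Pathway genes at week 4 numbered 12 higher and 4 lower in DP than DN cells and 7 higher and 4 lower in SP than DN cells, of 46 measured and beside 21.9% and 13.6% of all genes. Fcgrt, the class I-like receptor for IgG, was lower in both, at -2.47 (SE 0.38, adjusted p = 0.000167) and -2.86 (SE 0.424, adjusted p = 0.000381). In DP cells it was followed by Tpp2, a cytosolic peptidase, at 0.98 (SE 0.149), and H2-T10 at 0.93 (SE 0.275), and in SP cells by H2-T24 at -1.38 (SE 0.276) and H2-Q10 at -1.08 (SE 0.351). At weeks 2 and 6 no member was called against DN cells. For DP cells 0.814% and 3.2% of all genes were called and 1472 and 1810 had an unadjusted p under 0.05. For SP cells 0.464% and 3.02% were called, with 1207 and 1601.

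Over all weeks, DP cells were lower than DN cells in Tap1, at -0.23 (SE 0.0522, adjusted p = 0.00395), and in Nlrc5, at -0.20 (SE 0.068, adjusted p = 0.0447), where 19.5% of all genes were called. Both calls rested on week 1. With the week-1 libraries left out of the fit, Tap1 was -0.11 (limma adjusted p = 0.0893) and Nlrc5 -0.01 (0.886). In that fit DP cells were higher than DN cells in B2m by 0.25 (0.000947), H2-K1 by 0.14 (0.0213) and H2-D1 by 0.14 (0.0161). With all 43 libraries fitted, the same contrast called 1 member higher and 0 lower, beside 9.8% and 13.5% of all genes. H2-K1 means at weeks 2, 4 and 6 were 10.09, 10.14 and 10.00 in DP and 10.06, 9.72 and 10.03 in DN cells. Those of H2-D1 were 9.02, 9.17 and 9.12 in DP and 9.06, 8.74 and 9.10 in DN cells. Nlrc5 also lost its call when any 1 of 12 libraries was left out (adjusted p between 0.05 and 0.105) and after median rescaling (0.0757). SP cells were higher than DN in B2m by 0.22 (SE 0.0594, adjusted p = 0.0128), H2-D1 by 0.19 (SE 0.0476, adjusted p = 0.0074) and H2-K1 by 0.17 (SE 0.052, adjusted p = 0.0259), and lower in Tap1 at -0.19 (SE 0.0544, adjusted p = 0.0181), at 19.4% of all genes. Without the second week-4 SP library the H2-K1 value was 0.15 (adjusted p = 0.0657). Library codes were split into an earlier and a later run just below the lowest DN code, so all untreated DN libraries are in the later run. Most DP and SP libraries are in the earlier run, and at weeks 1 and 4 all of them are. With the run of the code as a term 0 members passed in either comparison, the SP values being 0.28 for B2m (adjusted p = 0.176), 0.25 for H2-D1 (0.135), 0.19 for H2-K1 (0.321) and -0.22 for Tap1 (0.283). Over all weeks 5 of 10 T-cell identity genes were lower and 1 higher in DP than DN cells, and 3 of 9 myeloid, 2 of 5 class II and 2 of 5 epithelial markers higher. In SP cells 4 T-cell identity, 2 epithelial and 1 myeloid genes were higher than in DN cells and none was lower. The part of these in the member calls was not tested. In the pathway list DP cells had 7 genes higher and 8 lower and SP cells 8 higher and 6 lower than DN cells, both led by lower Fcgrt (-1.16 and -1.47) and H2-T24 (-0.708 and -0.999).

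In spleen, memory subsets differed from naive cells in part of the set. Erap1 was 4.22, 4.18 and 4.15 in naive, 3.97, 3.93 and 3.85 in CM and 3.66, 3.65 and 3.76 in EM libraries, so that no 2 of the 3 groups overlapped. Tap1 was 7.92, 7.74 and 7.96 in naive and 7.43, 7.63 and 7.36 in EM libraries. Tapbp was 4.61, 4.68 and 4.67 in naive, 4.54, 4.60 and 4.65 in CM and 4.17, 4.30 and 4.10 in EM libraries. All 3 EM values of each gene lay below the naive ones. EM cells were lower than naive cells in Erap1 at -0.49 (SE 0.176, limma adjusted p = 0.0449), Tapbp at -0.46 (SE 0.127, adjusted p = 0.0103), Tap1 at -0.40 (SE 0.0999, adjusted p = 0.00538) and B2m at -0.33 (SE 0.109, adjusted p = 0.0322). Of all genes 24.6% were called there. Nlrc5 went the other way, higher in EM than naive cells by 0.34, and was not called in the reported fit. It passed in limma with design-based degrees of freedom (adjusted p = 0.00609), after quantile normalization (0.0242), with a replicate block (0.0401) and with neither trend nor robust option (0.0412), though not under every alternative. The Erap1 call was lost without any 1 of the 6 libraries (0.0683 to 0.105) and that of B2m in 4 of 6 cases (0.055 to 0.0917).

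CM cells had the most Nlrc5 of the spleen groups, 12.75, 12.61 and 12.55, where naive libraries had 12.04, 12.08 and 12.12 and EM libraries 12.47, 12.26 and 12.52. The difference from naive cells was 0.56 (SE 0.13, adjusted p = 0.00454). CM cells were lower than naive cells in H2-D1 at -0.51 (SE 0.0874, adjusted p = 0.00031), Tap2 at -0.40 (SE 0.136, adjusted p = 0.0423) and B2m at -0.33 (SE 0.109, adjusted p = 0.0388), at 18.8% of all genes. H2-D1 was 9.12, 8.99 and 9.06 in naive, 8.52, 8.55 and 8.58 in CM and 9.005, 9.10 and 8.97 in EM libraries, so CM was low and the other groups overlapped. H2-K1, in contrast, was 9.94, 10.01 and 10.07 in CM libraries against 9.96, 9.92 and 9.92 in naive ones. H2-T23 was lower in CM than naive cells at -0.49 and was not called. It passed in limma with design-based degrees of freedom (adjusted p = 0.0112) and when only the groups compared were fitted (0.00918), though not under every alternative. EM cells exceeded CM cells in H2-T23 by 0.57 (SE 0.186, adjusted p = 0.0419), Tap2 by 0.54 (SE 0.136, adjusted p = 0.0103) and H2-D1 by 0.47 (SE 0.0874, adjusted p = 0.00115) and were lower in Tapbp at -0.41 (SE 0.127, adjusted p = 0.0319), at 15.4% of all genes. Leaving out 1 library ended the call of B2m between CM and naive cells in 5 cases (0.0518 to 0.158) and of Tap2 in 4 (0.0927 to 0.144), and median rescaling ended that of Tap2 (0.061). Between EM and CM cells it ended that of H2-T23 in 5 cases (0.067 to 0.172), of Tapbp in 4 (0.0732 to 0.114) and of Tap2 in 2 (0.051 and 0.0554).

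Among the called genes of the wider pathway H2-Q10, a secreted class I chain, had the largest difference in each spleen comparison. It was higher than in naive cells by 3.92 (SE 0.314, adjusted p = 7.24e-09) in EM and 2.83 (SE 0.314, adjusted p = 1.84e-06) in CM cells. H2-Q2 was higher by 1.61 (SE 0.523) and 1.80 (SE 0.523), and next came H2-Q6 in EM cells, at 1.23 (SE 0.19), and Ifngr1 in CM cells, at 1.54 (SE 0.191). Of 46 measured, 6 genes were higher and 6 lower in EM, and 8 higher and 8 lower in CM, than in naive cells, beside 24.6% and 18.8% of all genes. Between EM and CM cells 3 were higher and 4 lower, beside 15.4% of all genes. The higher ones were led by H2-Q10 (1.09) and H2-K2 (0.99) and the lower ones by Stat2, a transcription factor of interferon signalling (-0.77). Of the T-cell identity genes 1 of 10 was higher and 2 were lower in EM than naive cells, and of myeloid markers 1 of 9 was higher and 2 were lower.

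Compared with spleen EM cells, all 3 tumor subsets had more Tapbp. The 3 EM libraries, at 4.17, 4.30 and 4.10, lay below all 34 tumor libraries, the lowest of which was in week-1 DP at 4.52. The difference was 0.59 (SE 0.0997, adjusted p = 0.000144) for DP, 0.60 (SE 0.102, adjusted p = 0.000172) for SP and 0.55 (SE 0.103, adjusted p = 0.000891) for DN cells. B2m was higher in DP by 0.34 (SE 0.0856, adjusted p = 0.00462) and in SP by 0.47 (SE 0.0872, adjusted p = 0.000447), and H2-K1 in SP by 0.27 (SE 0.0764, adjusted p = 0.0109). B2m in DN cells was 0.25 above EM (SE 0.0883, adjusted p = 0.0518), and Tap1 in DN cells was higher by 0.29 (SE 0.0809, adjusted p = 0.0142). This made 2 members higher in DP, 3 in SP and 2 in DN cells and 0 lower, with 29.7%, 29.4% and 20.6% of all genes called. The 3 comparisons share the EM libraries. Without the third EM library H2-K1 in SP (0.0675) and Tap1 in DN (0.115) no longer passed, nor did Tap1 without the first (0.0705). With a term for the run of library codes Tapbp (0.50, adjusted p = 0.0525) and Tap1 (0.32, adjusted p = 0.111) in DN cells did not pass. Without week 1 DP cells were also higher in H2-K1, by 0.26 (adjusted p = 0.00211).

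Tissue markers differed in the same comparisons, since 5 of 5 epithelial markers were higher in each tumor subset than in EM cells and 2 of 2 B-cell markers lower. The epithelial list also differed between control spleen groups, with 2 of 5 genes lower in EM than naive cells and 2 lower in EM than CM cells. Its mean of gene-centred values was -3.04 in EM, -2.03 in naive and -1.21 in CM cells, and -1.31 in week-1 DN cells. Of myeloid markers 4 of 9 were higher and 1 lower in DP, and likewise in SP, and 3 were higher and 2 lower in DN cells. T-cell identity genes were lower in 5 of 10 cases and higher in 1 in DP, higher in 4 and lower in 0 in SP, and higher in 1 and lower in 1 in DN cells. Their part in the tumor and spleen differences was not tested. Of 46 pathway genes 12 were higher and 9 lower in DP, 15 and 9 in SP and 10 and 7 in DN cells against EM, beside the 29.7%, 29.4% and 20.6% of all genes. Fcgrt was lower in DP (-1.30) and SP cells (-1.61), as was H2-Q10 (-1.12 and -1.46), while H2-Q2 was higher (1.14 and 1.47). In DN cells Stat2 (1.11), Socs1 (1.10) and Ifngr1 (1.06) were the largest.

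Over the 15 untreated group means the light chain followed the classical heavy chains most closely. The heavy chains followed each other unevenly, with a Pearson r of 0.831 for H2-D1 and H2-T23, 0.722 for H2-K1 and H2-D1 and 0.476 for H2-K1 and H2-T23. Of 36 pairs of members 30 had a Pearson r above 0, with a median of 0.282. B2m was most like H2-K1 (r = 0.861) and H2-D1 (r = 0.856), then H2-T23 (0.611), Nlrc5 (0.533), Tapbp (0.435), Tap1 (0.212), Erap1 (0.0523) and Tap2 (-0.0246). Nlrc5 was most like H2-K1 (0.729), followed by B2m (0.533), H2-D1 (0.384), Tapbp (0.359), Tap1 (0.353), H2-T23 (0.339), Erap1 (0.135) and Tap2 (-0.262). Tap2 and Erap1 were the most opposed pair (r = -0.787). The groups share a normalization and the low week-1 DP group enters every pair, and within groups, over the residuals of single libraries, the median r fell to 0.055. The genes outside the set most like the mean of the 9, each scaled to an SD of 1, were Ifit2, an interferon-induced gene (r = 0.949), Sh3bp1 (0.937), Wdr44 (0.915), the nonclassical class I chain H2-T22 (0.914) and Ubqln4 (0.91), each over 15 group means. That mean did not follow all members alike, with an r from 0.881 for B2m down to 0.177 for Erap1 and -0.00577 for Tap2.

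**Figure D4:**
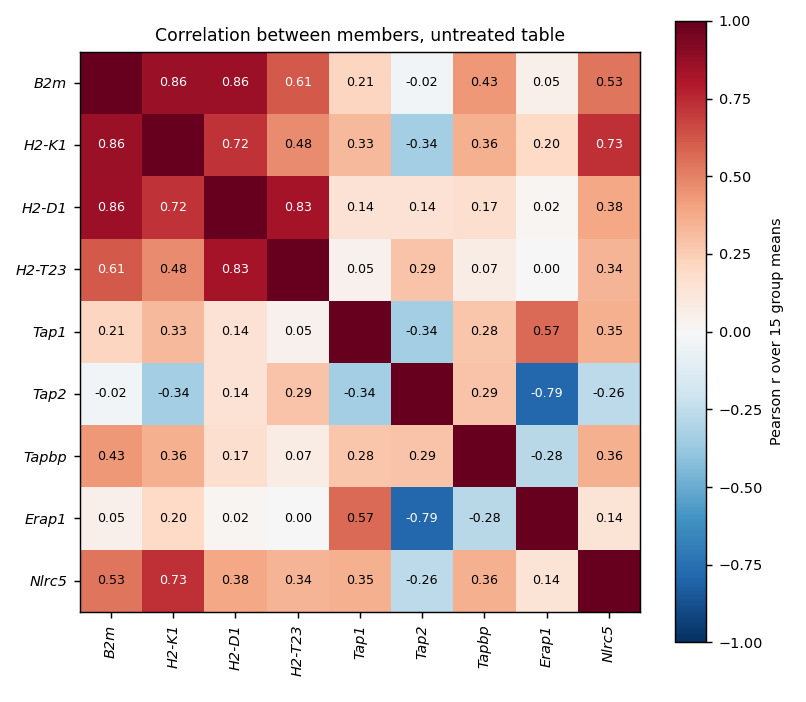
Pearson r over 15 untreated group means for each pair of the 9 genes, with red above 0 and blue below. The block of B2m, H2-K1, H2-D1 and H2-T23 is positive throughout, and the pair of Tap2 and Erap1 is the most negative at -0.787.

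In tumors of day 40 under ICB, DP cells had more light chain, H2-D1 and tapasin message than DN cells. B2m was 15.63, 15.63 and 15.61 in DP, 15.54, 15.52 and 15.57 in SP and 15.29 and 15.29 in DN libraries. The 3 subsets did not overlap and were in the order DP, SP, DN. H2-D1 had the same order, with 15.22, 15.21 and 15.20 in DP, 15.09, 15.15 and 15.08 in SP and 14.76 and 14.78 in DN libraries. Tapbp was 12.87 in each DP library, 12.73, 12.71 and 12.74 in SP and 12.43 and 12.42 in DN libraries. The ICB table has a residual rank of 2 of 5, so its spread between libraries is understated. Absence of overlap is therefore weak evidence of separation here. DP exceeded DN cells in Tapbp by 0.45 (SE 0.063, limma adjusted p = 0.024), in H2-D1 by 0.44 (SE 0.0666, adjusted p = 0.0278) and in B2m by 0.33 (SE 0.0647, adjusted p = 0.047), at 7.49% of all genes called. H2-K1 at 0.30 (SE 0.0649, adjusted p = 0.0594), Tap1 at 0.26 (0.0988), Nlrc5 at 0.26 (0.0739) and H2-T23 at 0.21 (0.134) were in the same direction and did not pass. Tap2 at 0.09 and Erap1 at -0.14 did not pass either. The median difference was 0.26 over the members and 0.01 over all genes.

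**Figure D5:**
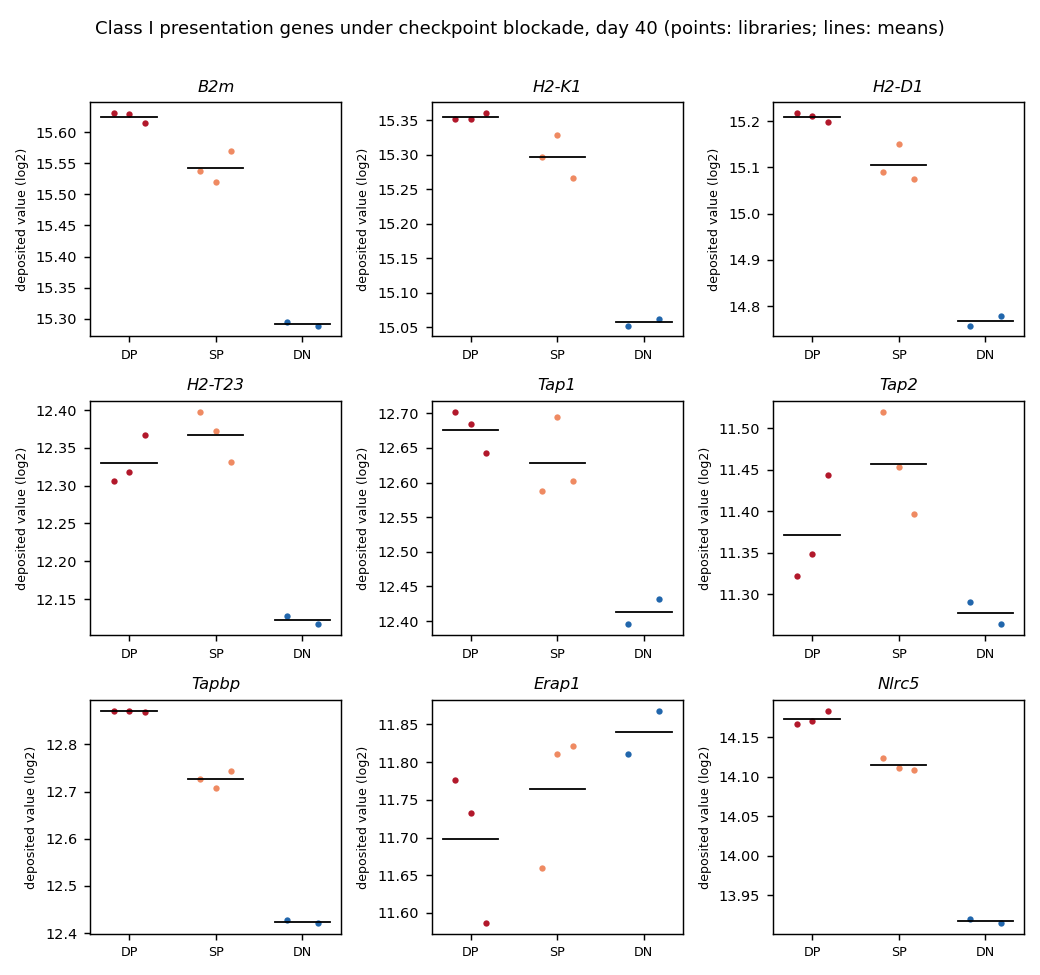
Deposited log2 value (vertical axes, a different range in each panel) of the 9 genes in the 8 ICB libraries by subset; points are libraries and lines means. For B2m, H2-K1, H2-D1, Tapbp and Nlrc5 the DP libraries lie above the SP libraries and these above the DN libraries, and for Erap1 the DP libraries lie below the DN libraries and the SP libraries overlap both.

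The ICB calls were sensitive to the fit and to single libraries. All 3 calls were lost without either DN library, with an adjusted p of 0.12 and 0.117 for B2m, 0.0781 and 0.069 for H2-D1 and 0.0652 and 0.0646 for Tapbp. The B2m call was also lost without the first (0.0512) or second (0.0666) DP library. After quantile normalization the B2m difference was -0.09 (adjusted p = 0.226), while median rescaling gave 7 members called and a fit with neither trend nor robust option gave 0. SP against DN cells had 0 members called, at 3.83% of all genes and 2998 at an unadjusted p under 0.05, with 8 of 9 differences above 0 and H2-D1 nearest at 0.34 (SE 0.0666, adjusted p = 0.0645). DP against SP cells had 0, at 0.0372% of all genes and 1733 at an unadjusted p under 0.05, with differences from -0.09 to 0.14.

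Markers of other cells differed between the same ICB libraries. Of 11 measured myeloid markers 8 were higher in DP than DN cells, as were 4 of 5 class II genes, 2 of 5 stromal and endothelial, 1 of 7 epithelial and 2 of 3 CD4 and regulatory genes. The myeloid list's mean of gene-centred values was 0.92 in DP (0.68 to 1.07), -0.20 in SP (-0.45 to 0.22) and -1.08 in DN libraries (-1.08 to -1.07), in the order of the B2m values. Of T-cell identity genes 1 of 10 was higher and 1 lower. Their part in the class I differences was not tested. In the pathway list, 4 genes of 47 measured were higher and 1 lower in DP than DN cells, beside 7.49% of all genes, led by Stat2 at 0.66 (SE 0.0841, adjusted p = 0.0199), Calr at 0.61 (SE 0.113, adjusted p = 0.0424) and Pdia3, a disulfide isomerase of the loading complex, at 0.58 (SE 0.0719, adjusted p = 0.019). Pdia3 was also the 1 pathway gene called in SP against DN cells, at 0.55 (SE 0.0719, adjusted p = 0.0275), and 0 were called between DP and SP cells. The ICB and untreated tables were normalized separately, so the blockade itself was not compared.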

How the data were processed

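Per the labels' protocols, sorted-cell RNA was made into QuantSeq 3' mRNA-Seq FWD libraries and sequenced single-end on a NextSeq500. The submitters' processing notes name HISAT2, HTSeq and mm10 but no version. The authors deposited normalized values, read here as log2 because they include negative numbers; the normalization is not given in the sources used here, and depth is unknown. The untreated table has a residual rank of 18 of 28 and that under ICB 2 of 5, the form left when factors have been subtracted, so the spread between libraries is understated. In R 4.3.3, limma 3.58.1 (trend and robust options, statmod 1.5.0) fitted group means per table, with residual degrees of freedom scaled by 0.6429 and 0.4, no filter on low values, weeks weighted equally, and Benjamini-Hochberg adjustment over all genes. A call is an adjusted p below 0.05. Scripts were tested on simulated data; adjusted p-values are too small if the factors removed overlapped the groups. Named were all 9 members, at most 3 called pathway genes of largest difference per comparison, and the 5 genes most like the members' mean over group means; the marker genes named were chosen after their values were seen. Members, lists and tests were chosen with earlier results of these data known. Alternatives were other degrees of freedom, scalings, filters, fits of only the groups compared, a replicate block, the run of library codes as a term, and leaving out week 1 or each library. Sequences are from RefSeq and positions from GENCODE M21.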

Additional observations from a re-analysis of the deposited data

Results flagged for a closer look

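The difference between tumor subsets changed with time in 12 cases, each tested in limma as the week-1 difference minus the mean of the differences at weeks 2, 4 and 6 (adjusted p below 0.05 over all genes). For DP against SP cells these were B2m (-0.5787), H2-K1 (-0.5565), H2-D1 (-0.4447), Tap1 (-0.4254), Tap2 (0.469), Nlrc5 (-0.8831) and Erap1 (-0.7013). For DP against DN cells they were B2m (-0.6267), H2-K1 (-0.5645), H2-D1 (-0.3452), Tap1 (-0.461) and Nlrc5 (-0.7324). Leaving out 1 library ended the Tap2 call in 16 cases, that of Erap1 in 2 and that of H2-D1 against DN cells in 3, median rescaling ended that of Tap1 against SP cells (adjusted p = 0.052), and a fit with neither trend nor robust option that of Tap2 (0.0572). All 12 share the same 3 week-1 DP libraries, whose T-cell identity genes were also low and whose part was not tested.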

How the results depend on the processing

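Of 155 counts of members called under the alternatives, 119 stayed within 1.5 times the reported count, as did every count under the filter on low values. Of 1875 single values, 2 reversed. H2-K1 in DP against DN cells was 0.14 without week 1, and B2m in ICB DP against DN cells was -0.08723 after quantile normalization. The causes were not tested. DP against SP over all weeks (reported 0) gave 4 members with design-based degrees of freedom, 3 when only the groups compared were fitted, 2 after quantile normalization and 1 with the library code run. DP against DN (2) gave 1 after median rescaling and 0 with the code run, which also gave 0 for SP against DN (4) and DN against EM (2). At week 1, DP against SP (8) gave 2 when only those groups were fitted, and DP against DN (4) gave 7 with design-based degrees of freedom, 7 after quantile normalization, 2 with the code run and 0 when only those groups were fitted. DP week 6 against week 1 (8) gave 5 and DP week 2 against week 1 (7) gave 4 when only those groups were fitted. SP against DN at week 1 (0) gave 2 with design-based degrees of freedom and 2 after quantile normalization. With design-based degrees of freedom SP week 6 against week 1 gave 1, DN week 6 against week 1 gave 3, and DP and DN against EM gave 4 each. Quantile normalization gave 2, 1 and 4 for SP and DN between weeks 6 and 1 and for DP against EM.

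Under ICB, DP against DN (3) gave 7 with design-based degrees of freedom, after median rescaling and when only those groups were fitted, 5 after quantile normalization and 0 with neither trend nor robust option. SP against DN (0) gave 8, 6, 2 and 3 under the first 4 of these in the order design-based, median rescaling, only those groups and quantile normalization, and DP against SP (0) gave 4 with design-based degrees of freedom and 2 after quantile normalization. Leaving out each library, counts ran from 4 to 8 for DP against SP and 2 to 5 for DP against DN at week 1, 0 to 2 for DP against SP, 1 to 2 for DP against DN, 5 to 8 for DP week 6 against week 1, 2 to 4 for EM against naive, 2 to 3 for CM against naive, 1 to 4 for EM against CM, 2 to 3 for DP and for SP against EM, 1 to 3 for DN against EM, 1 to 3 for SP against DN at week 4, and, under ICB, 0 to 5 for DP and 0 to 3 for SP against DN. A lone library left in a group was assumed to vary like the other groups.

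Replicate numbers were not taken to pair the libraries, since the labels name no shared source and not every same-numbered pair had a correlation of deviations above 0.1. Same-numbered libraries of different groups had a median correlation of 0.00253 (276 pairs, -0.664 to 0.861), and 0.361 under ICB (7 pairs, -0.995 to 0.92). The untreated pairs mix weeks, spleen and tumor, so these values cannot show whether subsets of 1 week came from the same tumors. Replicate numbers also depart from the library codes. Under ICB the second DP, second SP and first DN libraries have consecutive codes. A pairing by code was not tested, and the replicate block may not join libraries of 1 source. With the replicate block, DP against SP gave 2 members, DN week 6 against week 1 gave 1, SP against DN at week 1 gave 1, and ICB DP and SP against DN gave 6 and 2. Depth is unknown, so no detection limit can be given.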
